A study of Zea mays with 4 samples.

Results

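The genes described here encode enzymes and remodellers that set and keep DNA methylation in maize, and they were 8 of the 110028 gene models in each library. They were chosen by gene model identifier, and the classes follow the type of enzyme. The CG class is GRMZM2G333916, a methyltransferase of the met1 type. The CHG class holds the chromomethylase genes zmet2 (GRMZM2G025592) and zmet5 (GRMZM2G005310). The DRM class holds GRMZM2G137366 and dmt106 (GRMZM2G065599), and the DDM1 class holds cha101 (GRMZM2G177165) and chr101a (GRMZM2G071025). The last gene is mop1 (GRMZM2G042443). The reference gene table lists zmet2 as met2 and zmet5 as met5, gives GRMZM2G137366 only a locus number and describes no product, so the classes themselves rest on the selection of these identifiers.

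All RNA came from the inbred line B73, from the central starchy endosperm, which stores the kernel's starch and protein, at 6 days after pollination. The plants were self-pollinated and carried no transgene or treatment that the labels name. The tissue was collected by laser-capture microdissection, and its polyadenylated RNA was amplified before sequencing. The 4 replicate libraries form 1 group, so there was no second condition, and nothing in the labels says whether they came from separate plants, ears or kernels. Each SD and p-value thus covers variation among these 4 libraries, and part or all of it may be technical.

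Plant DNA is methylated at cytosines in several sequence contexts. Enzymes of the MET1 type copy CG methylation onto the new strand after replication, and chromomethylases maintain CHG methylation (H is A, C or T) by binding to methylated histone H3. Enzymes of the DRM type add methylation at sites selected by small interfering RNAs, a process called RNA-directed DNA methylation. Remodellers of the DDM1 type open heterochromatin to the methyltransferases, and mop1 encodes the RNA-dependent RNA polymerase that makes double-stranded precursors of those small RNAs and is required for paramutation in maize. Endosperm DNA methylation matters for imprinting, because the maternal genome loses methylation at many sites before fertilization.

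The unit is RPM, a gene model's reads per 1000000 reads counted on all models in that library, computed from the deposited signal. Recovered depth was 3432952 to 5477465 reads per library. Exact 95% Poisson intervals on a member's reads cover counting error only, since amplified reads are not independent molecules. The sources used here give no transcript lengths, so values of different genes are compared only as read shares, in which a longer transcript yields more reads at equal abundance. Reads are not known to have been counted by strand.

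The CHG class held the most reads and zmet2 led it. Zmet2, whose product is the main CHG methyltransferase of maize, had 178, 155, 146 and 118 RPM in replicates 1 to 4, a mean of 149 ± 24.6 RPM (SD, n = 4). It was lowest in replicate 4, with an exact 95% interval of 109 to 128 RPM. That lay below the intervals of the other libraries, the nearest being 135 to 157 RPM in replicate 3. This gap holds for library totals only. Over library sizes adjusted by edgeR's TMM method, replicate 4 had 126 RPM and replicate 3 had 144 RPM, and intervals scaled likewise overlap. Zmet5, a close relative with an overlapping role, had 80.7, 94.1, 83.5 and 114 RPM, a mean of 93.0 ± 14.9 RPM (SD, n = 4). It was highest in replicate 4, the library in which zmet2 was lowest. There zmet2 and zmet5 had 648 and 622 reads, and their exact intervals overlapped.

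**Figure D1:**
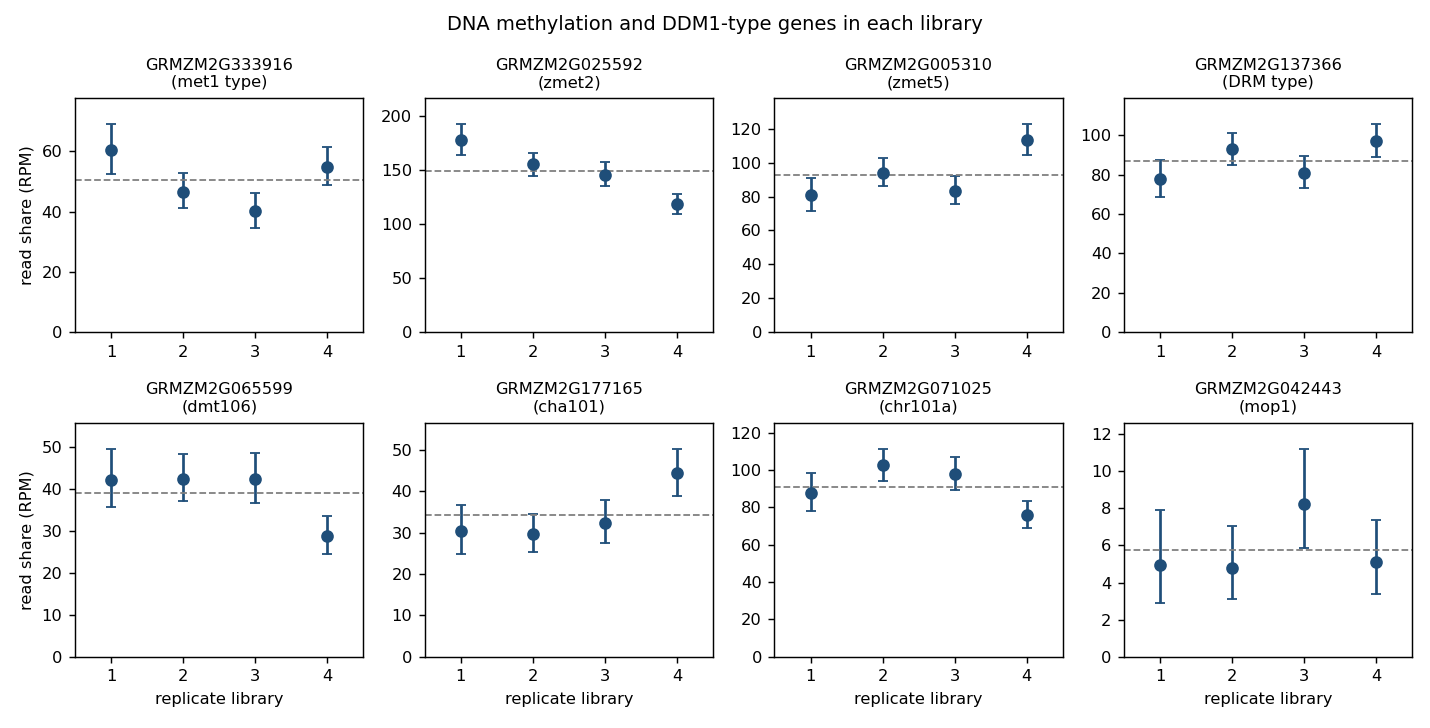
Read share in RPM (vertical axes, starting at 0, scaled separately for each gene) of the 8 genes in the 4 replicate libraries (horizontal axes). Bars are exact 95% Poisson intervals for counting error, and the dashed line is the mean of the libraries. In replicate 4, zmet5, GRMZM2G137366 and cha101 reach their highest values of 114, 97.1 and 44.4 RPM, while zmet2, dmt106 and chr101a reach their lowest of 118, 28.8 and 75.9 RPM.

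The CG class rests on GRMZM2G333916, for which 60.3, 46.6, 40.2 and 55.0 RPM were found in replicates 1 to 4, a mean of 50.5 ± 8.90 RPM (SD, n = 4). Replicates 1 and 4 were high and replicate 3 was low, and the exact intervals of replicates 1 and 3 (52.4 to 69.1 and 34.7 to 46.3 RPM) did not overlap. The RefSeq gene table has no entry for this model. It gives the names met1, dmt101 and ZMET1 to 1 gene that it pairs with the models GRMZM2G334041 and GRMZM2G333997. GRMZM2G334041 had 51.6, 47.5, 40.8 and 43.1 RPM, and GRMZM2G333997 had 14.9, 19.3, 15.8 and 17.3 RPM. Whether reads were divided between near-identical copies in the authors' counting was not tested, so the level of the CG class is uncertain by this amount. With all 3 models summed it was 127, 113, 96.7 and 115 RPM.

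Of the DRM class, GRMZM2G137366 had 77.8, 92.8, 81.0 and 97.1 RPM in replicates 1 to 4, a mean of 87.2 ± 9.27 RPM (SD, n = 4). Its coefficient of variation of 10.6% was the smallest of the 8 genes over library totals. Over TMM-adjusted sizes the smallest was that of chr101a, with 90.7 ± 8.84 RPM against 87.4 ± 11.9 RPM for GRMZM2G137366 (SD, n = 4). Dmt106 had 42.2, 42.6, 42.5 and 28.8 RPM, a mean of 39.0 ± 6.79 RPM (SD, n = 4). The first 3 libraries were nearly equal and replicate 4 lay apart, with 158 reads. Its exact interval there was 24.5 to 33.7 RPM, against a lowest bound of 35.6 RPM in the others. Over TMM-adjusted sizes replicate 4 had 30.6 RPM and the others 41.2 to 42.1 RPM. Scaled likewise, the intervals of replicates 4 and 1 overlap.

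Of the DDM1 class, chr101a had 87.7, 103, 97.8 and 75.9 RPM, a mean of 91.0 ± 11.8 RPM (SD, n = 4), and was lowest in replicate 4. Cha101 had 30.3, 29.7, 32.4 and 44.4 RPM, a mean of 34.2 ± 6.89 RPM (SD, n = 4), and was highest in replicate 4. The exact interval of cha101 in that library, 39.0 to 50.3 RPM, lay above those of the other libraries, whose highest bound was 37.9 RPM.

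Mop1 was far below the other genes in read share. It had 17, 26, 39 and 28 reads in replicates 1 to 4, which is 4.95, 4.79, 8.20 and 5.11 RPM, a mean of 5.76 ± 1.63 RPM (SD, n = 4). Its exact intervals, from 2.88 to 7.93 RPM in replicate 1 and from 5.83 to 11.2 RPM in replicate 3, overlapped in all libraries, so at this depth the high value of replicate 3 could not be told from the others. Each count was above the 3 reads taken as the detection floor, which is 0.548 to 0.874 RPM.

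By read share the order was zmet2, zmet5, chr101a, GRMZM2G137366, GRMZM2G333916, dmt106, cha101 and mop1. The ranges over libraries of zmet5, chr101a and GRMZM2G137366 overlapped, as did those of GRMZM2G333916, dmt106 and cha101, so the order inside each of these trios was within the spread between libraries. The range of zmet2 did not overlap that of zmet5, and the ranges of GRMZM2G137366 and GRMZM2G333916 did not overlap either. Of the 8 genes, 7 averaged at least 10 RPM and 8 at least 1 RPM, with a median of 68.8 RPM. Of the 37643 models above 0 in any library, 21181 averaged at least 1 RPM and 11272 at least 10 RPM, with a median of 1.80 RPM. Zmet2 stood at rank 1202 of all models and mop1 at rank 13936.

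Within every library the CHG class held the largest share of the reads of the 8 genes, 44.0 ± 1.37%, ahead of the DRM class with 23.0 ± 1.09%, the DDM1 class with 22.8 ± 1.48%, the CG class with 9.18 ± 1.53% and mop1 with 1.05 ± 0.329% (SD, n = 4). The summed level of zmet2 and zmet5 was 258, 249, 229 and 232 RPM in replicates 1 to 4. That of GRMZM2G137366 and dmt106 was 120, 135, 123 and 126 RPM, and that of cha101 and chr101a was 118, 132, 130 and 120 RPM. The DRM and DDM1 sums could not be ranked, since their ranges overlapped and the order differed between libraries.

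As a log2 ratio of RPM + 0.5, the CHG class over the CG class was 2.09, 2.41, 2.50 and 2.07 in replicates 1 to 4, a mean of 2.26 ± 0.22 (SD, n = 4). With the further met1 models in the CG class the mean ratio was 1.10. The CHG class over the DRM class was 1.10, 0.88, 0.89 and 0.88, a mean of 0.94 ± 0.11, and the CG class over the DRM class averaged -1.33 ± 0.29, or -0.16 with the further met1 models. The DDM1 class over the CG class averaged 1.32 ± 0.33, or 0.15 with those models. Mop1 over the DRM class averaged -4.37 ± 0.37. Each of these ratios had 1 sign in 4 of 4 libraries, except that with the further met1 models the CG sum was above the DRM and DDM1 sums in replicate 1 and below both in the other libraries. No p is given for sums over classes, and the ratios count reads without regard to length.

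**Figure D2:**
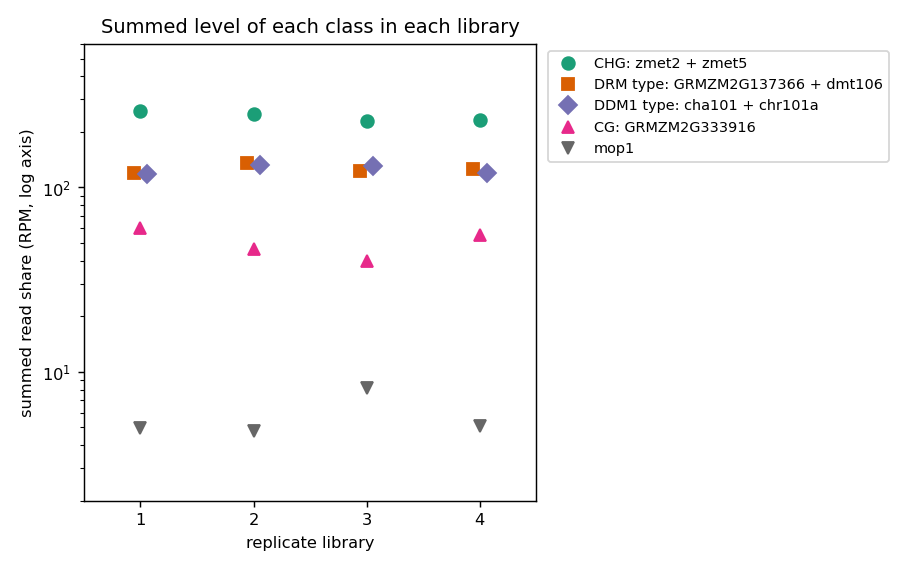
Summed read share in RPM (vertical axis, logarithmic) of each class in the 4 replicate libraries (horizontal axis). Each symbol is 1 class in 1 library, with the DRM and DDM1 symbols shifted sideways for sight. The CHG sums lie between 229 and 258 RPM, the DRM and DDM1 sums between 118 and 135 RPM, the CG gene between 40.2 and 60.3 RPM, and mop1 between 4.79 and 8.20 RPM.

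The sums of the 3 classes with a pair of genes varied less between libraries than any of the genes in them. The coefficient of variation was 5.79% for the CHG sum, against 16.5% for zmet2 and 16.0% for zmet5. It was 5.23% for the DRM sum, against 10.6% for GRMZM2G137366 and 17.4% for dmt106, and 5.67% for the DDM1 sum, against 20.2% for cha101 and 13.0% for chr101a. The highest sum exceeded the lowest by a factor of 1.13 in the CHG and DRM classes and 1.12 in the DDM1 class. A sum of values that vary separately can also have a smaller coefficient of variation than its parts. No test was made of whether the sums here varied less than that would give.

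Inside each pair the split of reads differed between libraries. The percentages depend on the unknown lengths of both transcripts. If the lengths that yield reads are the same in each library, which was not tested, they do not alter the order of the libraries. Zmet2 took 68.8, 62.2, 63.5 and 51.0% of the reads of zmet2 and zmet5 in replicates 1 to 4. The exact 95% binomial interval in replicate 4, 48.2 to 53.8%, lay below all the others, of which the lowest bound was 59.6%. GRMZM2G137366 took 64.8, 68.6, 65.6 and 77.1% of the reads of the DRM pair, and the interval in replicate 4, 73.8 to 80.2%, lay above the highest bound of the others, 71.9%. Cha101 took 25.7, 22.4, 24.9 and 36.9% of the reads of the DDM1 pair, and its interval in replicate 4, 33.2 to 40.7%, lay above the highest bound of the others, 30.2%. In all 3 pairs replicate 4 was the library farthest from the rest, and in the chromomethylase pair replicates 1 and 2 were also apart, with intervals of 65.6 to 71.8% and 59.6 to 64.8%.

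**Figure D3:**
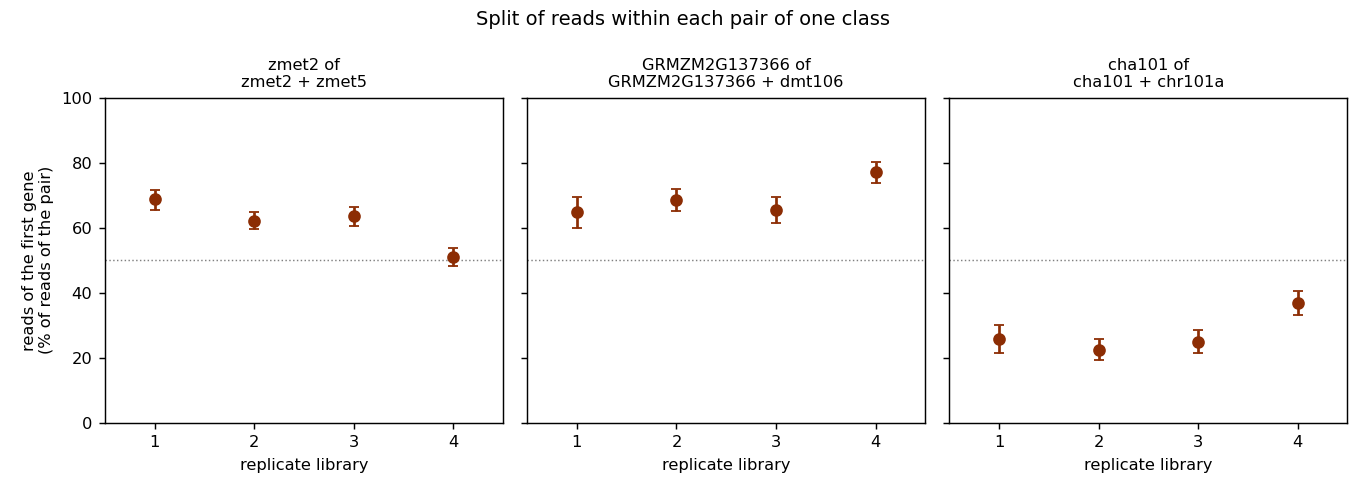
Reads of the first-named gene as a percentage of the reads of its pair (vertical axis, 0 to 100%) in the 4 replicate libraries (horizontal axes), with exact 95% binomial intervals for counting error. The dotted line marks an equal split. Replicate 4 stands apart in each panel, at 51.0% for zmet2, 77.1% for GRMZM2G137366 and 36.9% for cha101.

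The mean log2 ratio of zmet2 over zmet5 was 0.68 ± 0.45 (SD, n = 4) and lay above 0 in 4 of 4 libraries, though at 0.06 in replicate 4. GRMZM2G137366 over dmt106 was 1.16 ± 0.40, above 0 in 4 of 4 libraries, and cha101 over chr101a was -1.41 ± 0.44, below 0 in 4 of 4. For each of the 3 pairs the exact sign-flip permutation p was 0.13, two-sided, and 0.13 after Benjamini-Hochberg adjustment over the 3 pairs. This is the smallest p that 4 libraries allow, so no pair could pass 0.05. The SDs of these ratios can be set beside the spread of the whole data set. With edgeR's common biological coefficient of variation of 19.1%, a log2 ratio of a pair of genes that vary independently would have an SD of 0.39, so the ratios of these pairs varied by about as much as the general spread between these libraries gives. Without replicate 4 the common coefficient was 12.0%, which would give an SD of 0.24, and the SDs of the ratios were 0.22 for zmet2 over zmet5, 0.13 for GRMZM2G137366 over dmt106 and 0.13 for cha101 over chr101a.

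A chi-square test of recovered reads across all 16516 models that passed edgeR's filter on low reads, with Benjamini-Hochberg adjustment over all of them, compared libraries and not conditions. It called 44.1% of all models different between libraries beyond counting error, and 7 of the 8 genes listed here, mop1 being the exception (adjusted p = 0.158). The test calls more models where reads are many. Among 4066 models with a mean level in the range of the 7 genes above 10 RPM, the share called was 64.3%. The largest statistic was that of zmet5 (adjusted p = 2.15e-10), followed by zmet2 (adjusted p = 8.91e-07) and cha101 (adjusted p = 3.57e-06), and dmt106 had the largest adjusted p of the 7 called, 0.0216. Without replicate 4 only zmet2 and GRMZM2G333916 were called, 2 of 8 against 17.5% of all models, with adjusted p = 0.0141 and 0.00291 in the same chi-square test. Without the filter 6 of 8 were called, against 20.7% of 37643 models, since dmt106 then had an adjusted p of 0.0726.

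The members did not stand out in spread. Over the 11272 models with a mean of at least 10 RPM the SD of log2(RPM + 0.5) had a median of 0.22, with an interquartile range of 0.14 to 0.32. The 7 members in this range had SDs of 0.15 for GRMZM2G137366, 0.19 for chr101a, 0.22 for zmet5, 0.24 for zmet2, 0.26 for GRMZM2G333916, 0.27 for cha101 and 0.27 for dmt106. Each lay inside the interquartile range.

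**Figure D4:**
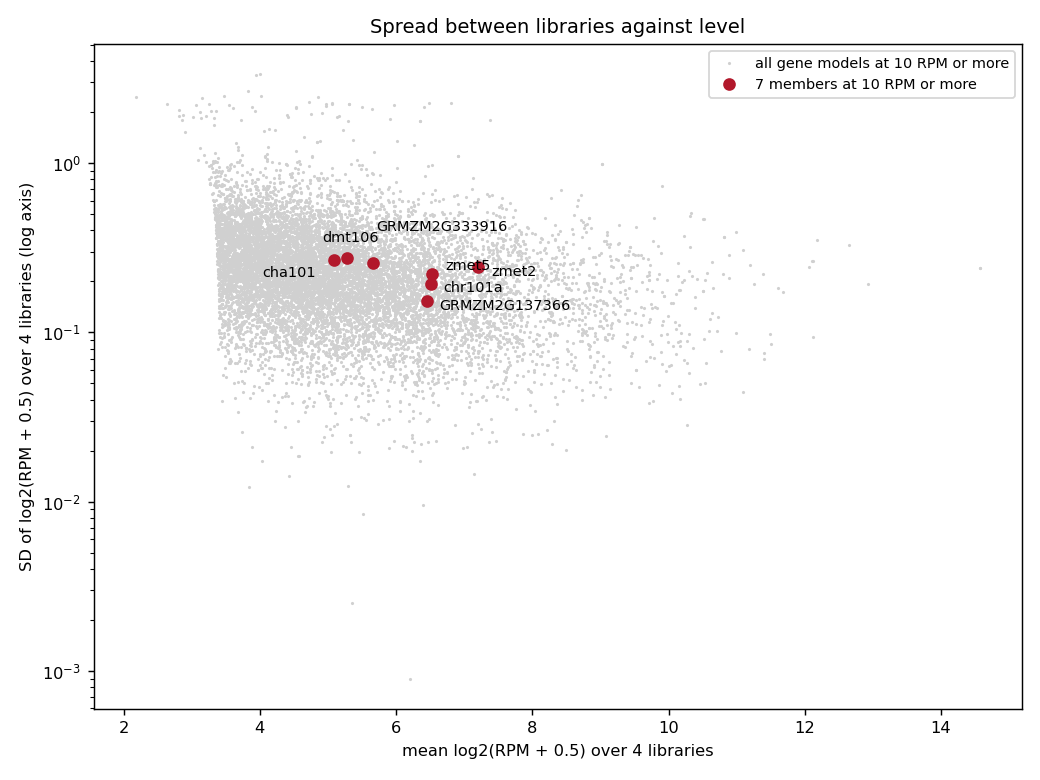
SD (vertical axis, logarithmic) against mean (horizontal axis) of log2(RPM + 0.5) over the 4 libraries, with 1 grey point for each of the 11272 gene models at 10 RPM or more and red points for the 7 members among them. The members lie between SDs of 0.15 and 0.27, near the median of 0.22.

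Replicate 4 also differed from the other libraries in markers of other kernel regions. The summed level of 6 markers of the basal endosperm transfer layer was 59.3 RPM in replicate 4 and 283 to 583 RPM in the others. Most of it was betl2, at 27.2 RPM and 191 to 436 RPM, while ebe1 was highest in replicate 4, at 27.2 RPM and 22.1 to 26.2 RPM. The sum of 3 markers of the embryo-surrounding region was 1.64 RPM in replicate 4 and 22.9 to 33.9 RPM in the others. The sum of 5 embryo markers was 45.5 RPM in replicate 4 and 25.3 to 31.5 RPM in the others, with glb2 and wox5b at 0 in every library. The sum of 6 aleurone genes was 109 RPM in replicate 4 and 127 to 135 RPM in the others, with c1 and r1 at 0 and cr4 highest in replicate 4, and that of 4 maternal and green tissue genes was 0 to 1.46 RPM in all libraries, with rbcs1 and bde1 at 0. The part of these regions in the split of the gene pairs was not tested, and in bulk tissue fewer cells of a type cannot be told apart from less RNA per cell. Of 6 regulators of endosperm genes, 5 averaged at least 1 RPM, with o2 at 0 in every library. That level was also reached by 21181 of the 37643 models above 0 in any library, so this is a weak check of the labelled tissue. The sum of the regulators was 1584 RPM in replicate 4 and 2250 to 2787 RPM in the others. Most of it was fl3, at 1400 RPM and 2107 to 2674 RPM. Fl3 and ohp2 were lowest in replicate 4, while nkd1, nkd2 and ohp1 were highest there. Nkd1 had 105 RPM in replicate 4 and 44.0 to 69.6 RPM in the others. For nkd2 the values were 27.2 RPM and 14.0 to 23.3 RPM, and for ohp1 37.6 RPM and 34.9 to 36.1 RPM.

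Other genes of the pathway were taken from 5 lists with 128 names, of which 103 matched no model by name and 5 matched more than 1. The 14 further models found had a median of 18.7 RPM, 13 averaged at least 1 RPM and 9 at least 10 RPM. The chi-square test called 6 of the 12 that passed the filter, against 44.1% of all models. None of the names of DNA demethylation genes matched a model.

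In the list for RNA-directed methylation and related small RNA genes, 5 models were found. Rmr2, which is needed for paramutation, had 26.4 ± 3.83 RPM, and rpd2, also named rmr7, a subunit gene of the plant-specific RNA polymerases of this pathway, had 5.58 ± 0.898 RPM, close to the 5.76 RPM of mop1 in read share. The chi-square test with Benjamini-Hochberg adjustment did not call either of them (adjusted p = 0.183 and 0.754). The other 3 are best known for other small RNAs. Lbl1, needed for trans-acting small RNAs, had 187 ± 27.8 RPM, dcl1, the Dicer-like gene of microRNA processing, had 91.6 ± 3.64 RPM, and rdr6 had 1.24 ± 0.470 RPM (SD, n = 4 each). Of these only lbl1 was called (adjusted p = 3.4e-07), with 152 RPM in replicate 4 and 180 to 216 RPM in the others, while rdr6 did not pass the filter.

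In the list of remodellers and readers, 7 genes of the methyl-CpG-binding domain family were found, and the test called 4 of the 6 that passed the filter, against 44.1% of all models. The name mbd101 matched a pair of models with nearly equal levels, GRMZM2G040131 at 94.5 RPM and GRMZM5G847045 at 96.1 RPM on average, and was left out of these counts. Among names with a single model, mbd115 had the most reads, with 80.4, 74.2, 59.1 and 51.3 RPM in replicates 1 to 4 (adjusted p = 4.28e-05). Mbd117 had 32.3 ± 7.66 RPM, mbd113 19.9 ± 2.35 RPM and mbd105 17.5 ± 4.93 RPM, and mbd108 had 4.66, 5.90, 6.31 and 10.4 RPM. Mbd117, mbd105 and mbd108 were called (adjusted p = 0.000336, 0.00709 and 0.00316), mbd113 was not (adjusted p = 0.665), and mbd106 was at 0 in every library. Mbd115, mbd117 and mbd105 were lowest in replicate 4 and mbd108 was highest there.

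In the list for methyl donor supply, sam2, an S-adenosylmethionine synthase gene, had 1448, 1456, 1174 and 844 RPM in replicates 1 to 4. It was lowest in replicate 4 (chi-square test, adjusted p = 3.47e-158). Adk1 had 13.1 ± 2.03 RPM and was not called (adjusted p = 0.092).

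Among 130 genes with a symbol of their own in the reference table, the nearest to each member in level and pattern was found by the root mean square difference of log2(RPM + 0.5) over the 4 libraries. The closest match was IDP755 for chr101a at 0.14, with 103, 103, 94.2 and 84.2 RPM. For both zmet5 and GRMZM2G137366 the nearest was ct2, at 0.14 and 0.15, with 95.3, 90.8, 81.4 and 104 RPM. The nearest genes of the other members lay at 0.20 to 0.28.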

How the data were processed

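RNA sequencing of 4 replicate libraries of central starchy endosperm was analysed. The deposited values are a signal per gene model that the authors scaled so that each library sums to 4773346, as the values show. Bedtools is named per the submitters' processing notes, without version or role. For the aligner, genome build, gene annotation and strandedness, nothing is given in the sources used here. Each value above 0 was a whole multiple of its library's smallest (tolerance 0.01 of a read), which gave 3432952, 5428283, 4754684 and 5477465 reads in replicates 1 to 4. The step of replicate 3 lies close to 1, so tests on reads are also given without it.

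RPM was computed over each library's total, and logs are log2(RPM + 0.5). The design foresaw levels per coding length, for which lengths were not used here, so ratios are of read shares. Tests were an exact sign-flip permutation test for 3 gene pairs and a chi-square test against TMM effective library sizes (edgeR 4.0.16, R 4.3.3) at an adjusted p of 0.05. DESeq2 1.42.0 gave other size factors as an alternative. Other alternatives were total reads, no filter, other pseudocounts, each replicate left out and further met1 models, the last added after the data were seen. The chi-square test was tested on simulated data.

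Gene names came from a RefSeq table (Zm-B73-REFERENCE-NAM-5.0), which matched 7 of the 8 genes. Its coordinates were used only to look for other RefSeq genes that overlap them. No other RefSeq gene overlapped those 7, and no model had reads identical to a member's. The genes named are the 8, the 4 highest and the lowest of each list, list genes called in the chi-square test and the nearest gene of each member. Single markers and mbd101 were named after their values were seen. Members and lists were chosen with earlier results of these data known. All libraries shared 1 flow cell lane, so lanes could not be compared. The sample labels used here name no batch of capture, amplification or library preparation, so effects of such batches could not be examined.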

Additional observations from a re-analysis of the deposited data

Results flagged for a closer look

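Of 19 quantities examined over the 4 libraries (levels, class sums and ratios), 3 had a library far from the rest by Dixon's test at 95%, a test that flags about 1 in 20 groups by chance. Dmt106 (GRMZM2G065599) had 28.8 RPM in replicate 4, against 42.2 to 42.6 RPM in the others. Mop1 (GRMZM2G042443) had 8.20 RPM in replicate 3, against 4.79 to 5.11 RPM in the others, on 17 to 39 reads per library. The log2 ratio of the CHG class over the DRM class was 1.10 in replicate 1, against 0.88 to 0.89 in the others.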

How the results depend on the processing

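The CG class, replicate 4 and the read filter bore on the results. Scaling by TMM bore on the interval gaps of zmet2 and dmt106 and on the smallest coefficient of variation, as given above. With 2 further met1 models in the CG class, added after the data were seen, the mean log2 ratio moved to 1.10 for the CHG over the CG class, to -0.16 for the CG over the DRM class and to 0.15 for the DDM1 over the CG class. Without replicate 4 the chi-square test called 2 of the 8 genes and 17.5% of all models, so both counts fell, while without replicate 1, 2 or 3 it called 7 of 8 each time, against 40, 36.9 and 40.8% of all models, a range of 2 to 7. Without the filter on low reads it called 6 (dmt106 was lost) and 20.7% of all models. With total reads in place of TMM it called 7 and 45.8%, and with DESeq2 size factors 7 and 44.1%. All 51 alternatives for ratios kept the direction of the mean. The 3 with the further met1 models moved it by more than its SD. The other 48, which left out a replicate or took a pseudocount of 0.1 or 1, did not. The 40 alternatives for single levels moved no mean by more than its SD. Leaving out 1 of 4 libraries cannot move a mean by its SD. Nor can it reverse a mean ratio that has 1 sign in every library. A pseudocount added to both terms of a ratio cannot change its sign either. The outcome of leaving out a replicate was thus fixed for these quantities, as was the direction under another pseudocount. Neither shows that they are robust. The setting per coding length was not run, because no lengths were used here, so ratios between genes or classes carry the unknown ratio of their transcript lengths. No paired analysis was possible because there is only 1 group. Depth limits mop1 most, with 17 to 39 reads per library.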
